A study of Mus musculus with 5 samples.

Results

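The ATF4 and amino acid response genes are the transcripts that cells switch on when amino acids run short or protein folding fails, and 43 of them were followed here in adipocytes treated with butein, sulfuretin or resveratrol. They were taken from a list and matched by gene symbol, with no threshold on a measured value, although the list was drawn up with earlier results of these data known. Of the 43, 42 had a probe set naming that gene alone, out of 18193 genes with such a probe set, and each gene was read from its brightest one. Pycr1 was not analysed here. All 42 reached the floor below which values were not counted (an intensity of 8.39, the median probe set) on at least 1 array, as did 12439 genes in all. Fgf21, at 5.31 to 8.56 over the arrays, reached it only on the resveratrol and DMSO1 arrays. By role the 42 are 13 regulators and stress effectors, 10 enzymes of amino acid and one-carbon synthesis, 7 amino acid transporters and 12 tRNA synthetases of the cytosol.

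The cells were C3H10T1/2, a mouse mesenchymal line made into adipocytes, given butein, sulfuretin or resveratrol for 6 h, against the solvent DMSO. The solvent array DMSO is set against butein and sulfuretin, and a further solvent array, DMSO1, is labelled as the control of resveratrol. Butein is a chalcone, sulfuretin is an aurone in which the chalcone bridge is closed into a ring, and resveratrol is a stilbene. The labels give no doses and 1 Affymetrix array per group, so no difference has a replicate of its own and the number of arrays limits the precision of every value.

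When amino acids are scarce or the endoplasmic reticulum is overloaded, kinases phosphorylate the initiation factor eIF2, which lowers general protein synthesis while favouring translation of the ATF4 message. ATF4 protein then pairs with C/EBP family partners on composite elements near its targets. Those targets restock the cell with amino acids through transporters, synthesis enzymes and aminoacyl-tRNA synthetases, and include feedback and death-associated genes such as Ppp1r15a and Ddit3. The arrays measured messenger levels only, so ATF4 protein and eIF2 phosphorylation were not seen.

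The cells carried adipocyte transcripts. All 10 measured adipocyte markers, among them Adipoq, Fabp4 and Lpl, were above the floor, and all 10 were lower with butein than in DMSO (median log2 difference -0.29) and with resveratrol than in DMSO1 (-0.11), as were 5 of 10 with sulfuretin. Their summed intensity was 21293 with butein and 24355 with sulfuretin, against 24526 in DMSO, and 23995 with resveratrol, against 25631 in DMSO1. Fewer cells of a type and less RNA per cell cannot be told apart in such bulk samples. Of the blood and macrophage markers, Ptprc, Adgre1 and Itgam were under the floor on all 5 arrays, but 4 of 8 reached it on some array (Csf1r, Cd14, Cd68 and Lyz2), the highest being Cd14 at 17.4 to 46.1. Of the muscle markers, Myod1 and Myog were under it on all 5, and 3 of 7 reached it (Acta1, Des and Ckm), the highest being Acta1 at 45.3 to 179. The 8 blood and macrophage markers summed to 64.0 with butein, 70.4 with sulfuretin and 70.5 in DMSO, and to 103 with resveratrol and 102 in DMSO1. The 7 muscle markers summed to 106 with butein, 114 with sulfuretin and 134 in DMSO, and to 244 with resveratrol and 260 in DMSO1. The fibroblast and precursor transcripts Pdgfra, Col1a1 and Col3a1 were well above it and summed, with the others of their list, to 4638 with butein, 5364 with sulfuretin and 5462 in DMSO, and to 4500 with resveratrol and 4731 in DMSO1. Of the osteoblast and chondrocyte markers, 4 of 6 measured reached the floor on some array (Sox9, Col2a1, Sp7 and Alpl). The highest was Sox9 at 68.7 to 102. These 6 summed to 132 with butein, 146 with sulfuretin and 174 in DMSO, and to 187 with both resveratrol and DMSO1. The part of these shifts in the results was not tested. The sorted values of butein, sulfuretin and DMSO nearly coincide, and so do those of resveratrol and DMSO1, but the sets lie on different scales (median intensity 6.85 against 11.1 to 11.5), so each compound was read within its own set, except where a fit or an alternative that uses both solvent arrays is named.

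Butein gave the widest response of this program. Of the 42 genes, 7 were at least 2-fold higher than in DMSO and 0 were 2-fold lower, where 2.03% of all counted genes were 2-fold higher and 0.297% lower. In all, 34 were higher, 5 lower and 3 equal, against 33.0% of all counted genes higher and 37.1% lower, and 10 were at least 1.5-fold higher, as were 5.01% of all counted genes. The median log2 difference was 0.34, where the median of all counted genes was 0. The 7 genes were Chac1, Ppp1r15a, Ddit3 and Atf4 among the regulators, and Slc3a2, Slc7a5 and Slc7a1 among the transporters. No synthesis enzyme and no tRNA synthetase passed 2-fold against DMSO. With DMSO1 as control after joint quantile normalization, where Fgf21 was not counted, 10 of 41 genes were past 2-fold higher. Vldlr, Slc1a4 and the synthetases Aars (log2 1.21) and Nars (1.35) were added and Atf4 (0.87) was not among them. The added genes were themselves lower in DMSO1 than in DMSO (Slc1a4 -2.06, Nars -0.70, Vldlr -0.70 and Aars -0.49). Between the solvent arrays 3.50% of all counted genes were 2-fold lower in DMSO1. The share of all counted genes past 2-fold with this control was not taken, so the count has no background beside it.

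**Figure D1:**
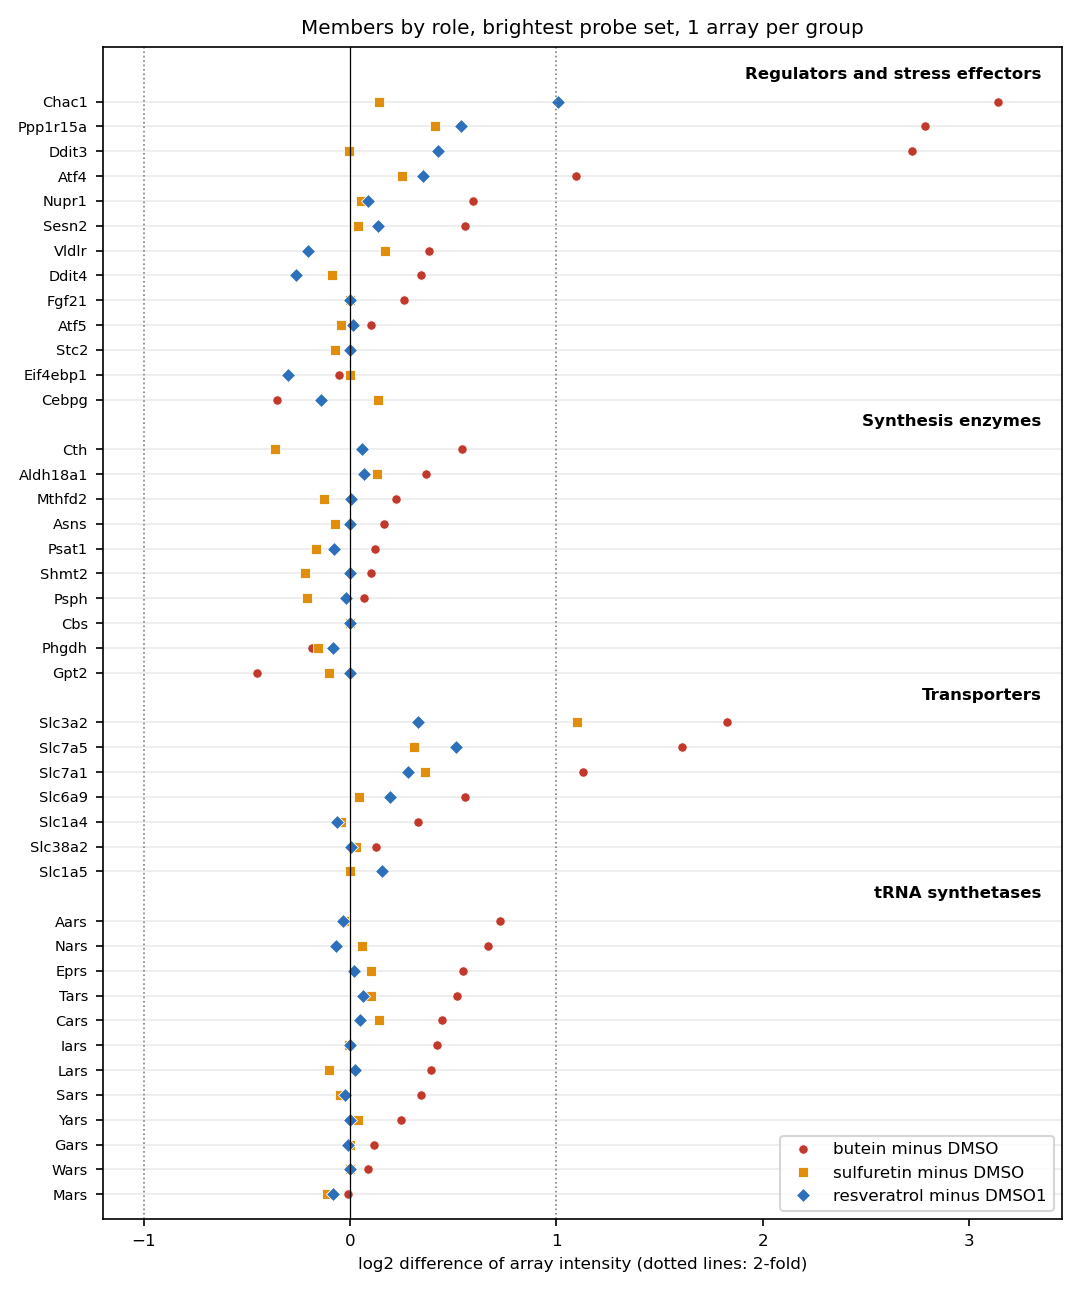
Log2 difference of array intensity for each of the 42 genes on its brightest probe set, grouped by role, with butein minus DMSO as circles, sulfuretin minus DMSO as squares and resveratrol minus DMSO1 as diamonds (1 array per group, so no error bars; dotted lines mark 2-fold). Butein holds 7 genes past the right dotted line, sulfuretin holds Slc3a2 and resveratrol holds Chac1.

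Among the regulators, Chac1 (NCBI gene 69065), an enzyme that degrades glutathione, stood out. Its intensity was 482 with butein, 60.3 with sulfuretin and 54.7 in DMSO, and 135 with resveratrol, against 67.4 in DMSO1. The butein array was 8.81-fold above DMSO (log2 difference 3.14), which placed Chac1 at rank 14 from the top among 12439 counted genes.

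Ddit3 (NCBI gene 13198), which encodes the death-associated factor CHOP, read 2693 with butein, 406 with sulfuretin and 408 in DMSO, and 758 with resveratrol, against 564 in DMSO1. It was 6.60-fold higher with butein than in DMSO and ranked 25, while the sulfuretin and DMSO arrays were nearly level. A dimmer probe set of Ddit3 gave another picture, at 20.2 with butein against 25.1 in DMSO, a log2 difference of -0.31, and with the mean of its probe sets the butein difference was 1.21 on the log2 scale.

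Ppp1r15a (NCBI gene 17872) encodes the subunit that directs protein phosphatase to eIF2 and so closes the feedback loop. It read 346 with butein, 66.6 with sulfuretin and 50.1 in DMSO, and 145 with resveratrol, against 100.1 in DMSO1. That put butein 6.91-fold above DMSO, at rank 21. Each treated array lay above its solvent array.

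Atf4 (NCBI gene 11911), the factor at the centre of the program, read 1238 with butein, 691 with sulfuretin and 580 in DMSO, and 1064 with resveratrol, against 832 in DMSO1. It was 2.13-fold higher with butein (log2 difference 1.09, rank 223), just past the criterion, and 2 dimmer probe sets gave log2 differences of 0.97 and 0.23. Its difference was under 2-fold when DMSO1, or both solvent arrays averaged, served as control after joint quantile normalization, and when its probe sets were averaged (log2 0.76).

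The remaining 9 regulators were within 2-fold of DMSO with butein. Nupr1, a stress-induced chromatin protein, was 1.51-fold higher and Sesn2, an inhibitor of the growth kinase complex mTORC1 under leucine shortage, 1.47-fold higher. Vldlr, a lipoprotein receptor, and Ddit4, another inhibitor of mTORC1, had log2 differences of 0.38 and 0.34. The hormone gene Fgf21 read 6.37 with butein and 5.31 in DMSO, under the floor on both arrays, so its log2 difference of 0.26 carries little information, and the glycoprotein hormone gene Stc2 read 11.2 on both. Atf5, a relative of Atf4, was at 0.10, Eif4ebp1, which encodes a repressor of translation initiation, at -0.05, and Cebpg, which encodes a dimer partner of ATF4, was the lowest at -0.36 with its other probe sets at -0.15 and -0.32. Over all 27 probe sets of the regulators at or above the floor, 18 were higher, 7 lower and 2 equal with butein, with a median of 0.26. On brightest probe sets the 13 regulators had a median log2 difference of 0.38, the lowest and the highest being Cebpg and Chac1. After joint quantile normalization Fgf21 fell under the floor and was not counted. The median of the other regulators was then 0.87 with DMSO1 as control and 0.66 with both solvent arrays averaged, so part of the step is a change of genes.

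Transporters followed the regulators. Slc3a2 (NCBI gene 17254), the shared heavy chain that brings several light chains to the cell surface, read 1072 with butein, 646 with sulfuretin and 302 in DMSO, and 709 with resveratrol, against 564 in DMSO1. It was 3.55-fold higher with butein, at rank 75, and is the gene of this group that was past 2-fold with sulfuretin as well.

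Slc7a5 (NCBI gene 20539), the light chain that carries leucine and other large neutral amino acids in partnership with Slc3a2, read 154 with butein, 62.5 with sulfuretin and 50.4 in DMSO, and 142 with resveratrol, against 99.8 in DMSO1. Butein lay 3.05-fold above DMSO, at rank 101. Slc7a1 (NCBI gene 11987), a carrier of arginine and lysine, read 142 with butein, 83.7 with sulfuretin and 65.0 in DMSO, and 92.0 with resveratrol, against 75.8 in DMSO1. It was 2.19-fold higher with butein, and its dimmer probe set at the floor also passed, with a log2 difference of 1.25, while the mean of all its probe sets gave 0.79.

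The remaining transporters differed less. Slc6a9, a glycine carrier, was 1.47-fold higher with butein and Slc1a4, a carrier of alanine, serine and cysteine, 1.26-fold higher. Slc38a2, a sodium-coupled carrier of neutral amino acids, was at a log2 difference of 0.13, and Slc1a5, the glutamine exchanger, had the same intensity of 23.1 on the butein, sulfuretin and DMSO arrays. Over all 14 probe sets of the transporters at or above the floor, 9 were higher, 2 lower and 3 equal with butein, with a median of 0.25. The 2 lower were dimmer probe sets of Slc38a2 (-0.32) and Slc1a5 (-0.35). On brightest probe sets the median of the 7 transporters was 0.55, with 6 higher and 0 lower. After joint quantile normalization it was 1.15 with DMSO1 as control, where Slc1a5 was over 2-fold lower, and 1.26 with both solvent arrays averaged. Those higher medians include Slc1a4, at 0.33 against DMSO and 1.33 against both averaged. Its solvent arrays differed by -2.06 (DMSO1 minus DMSO), so it cannot be compared across sets.

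**Figure D2:**
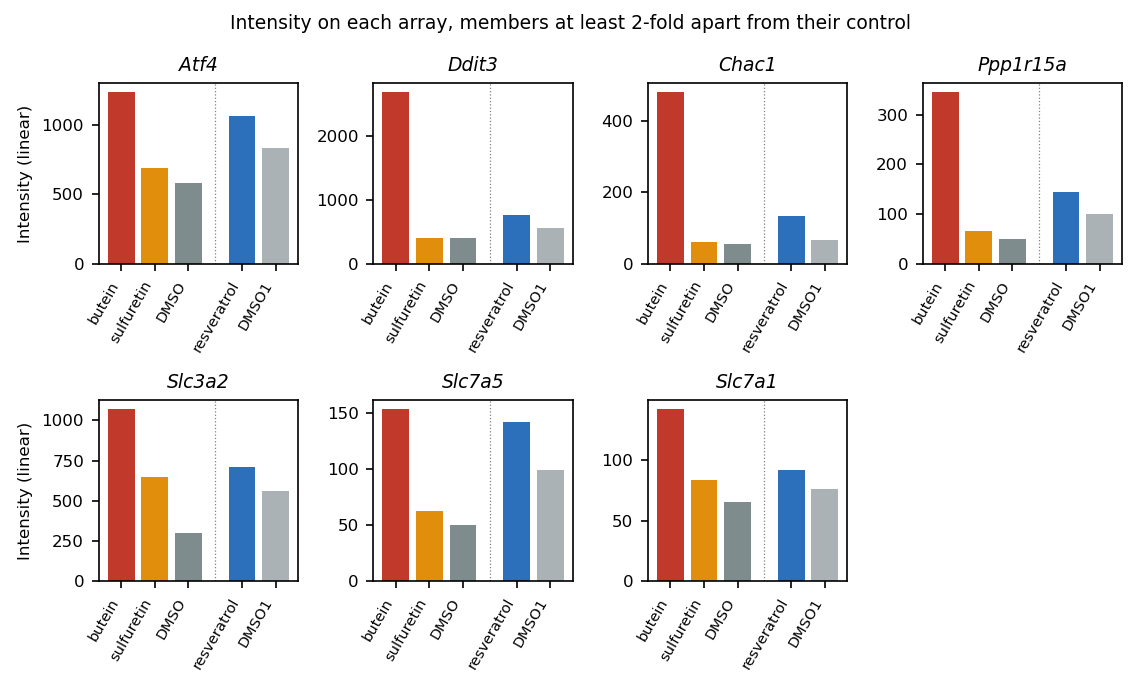
Linear intensity on each of the 5 arrays for the 7 genes at least 2-fold apart from their solvent array, as bars from 0 (1 array per group). The dotted line separates the butein, sulfuretin and DMSO arrays from the resveratrol and DMSO1 arrays, which lie on another scale. Butein has the highest bar of its set for all 7 genes, and sulfuretin lies clearly between butein and DMSO for Slc3a2.

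The tRNA synthetases, which charge tRNAs with their amino acids, were mostly higher, by steps that ranged from near level to 1.65-fold. Of the 12, 11 were higher with butein and 1, Mars, was level at -0.01, with a median log2 difference of 0.41. Aars, the alanine enzyme, was the highest at 1.65-fold, reading 556 with butein, 330 with sulfuretin and 337 in DMSO, and 309 with resveratrol, against 317 in DMSO1. Next came Nars (1.59-fold), Eprs (1.46-fold), Tars (1.43-fold), Cars (1.36-fold), Iars (1.34-fold), Lars (1.31-fold) and Sars (1.27-fold), which serve asparagine, glutamate with proline, threonine, cysteine, isoleucine, leucine and serine. Yars (0.24), Gars (0.12) and Wars (0.09) had the smallest positive log2 differences. Over all 22 probe sets of these genes at or above the floor, 17 were higher, 1 lower and 4 equal with butein.

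Synthetases outside the list had medians near 0. Of 10 counted genes for other cytosolic synthetases and the scaffold proteins of their complex, 3 were higher and 5 lower with butein, with a median of -0.03, from Qars at -0.33 to Aimp2 at 0.40. Of 16 counted mitochondrial synthetases 3 were higher and 8 lower, with a median of -0.01. Several of these were dim, with Mars2 and Sars2 under the floor on the butein, sulfuretin and DMSO arrays. The ER chaperone list, by contrast, had 13 of 13 genes higher with butein and a median of 0.39, none past 2-fold, a median close to that of the 12 synthetases. All these lists were drawn up with earlier results of these data known. The contrast between listed and other synthetases therefore describes the lists and was not tested.

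Synthesis enzymes were close to their solvent level. Asns (NCBI gene 27053), which makes asparagine and is a textbook target of ATF4, read 301 with butein, 255 with sulfuretin and 268 in DMSO, and 438 with both resveratrol and DMSO1. Its log2 difference with butein was 0.16, and 0.09 on its dimmer probe set. The serine pathway enzymes Phgdh, Psat1 and Psph were at -0.18, 0.12 and 0.07, and the mitochondrial folate enzymes Shmt2 and Mthfd2 at 0.10 and 0.22.

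Cth, which makes cysteine from cystathionine, was the highest of the enzymes at 1.46-fold (33.6 with butein against 23.1 in DMSO), followed by Aldh18a1 of proline synthesis at 1.29-fold. Cbs, which acts a step before Cth, read 10.1 on all 3 arrays of the set. Gpt2, an alanine transaminase, was the lowest at -0.45, with its 3 dimmer probe sets between -0.32 and 0. Over all 25 probe sets of these enzymes at or above the floor, 13 were higher, 7 lower and 5 equal with butein, with a median of 0.06. On brightest probe sets the median of the 10 enzymes was 0.11, with 7 higher and 2 lower. After joint quantile normalization it was -0.11 with DMSO1 as control and -0.05 with both solvent arrays averaged. On its dimmer probe sets Shmt2 ranged from -0.06 to 0.77, so the step for that gene depends on the probe set.

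**Figure D3:**
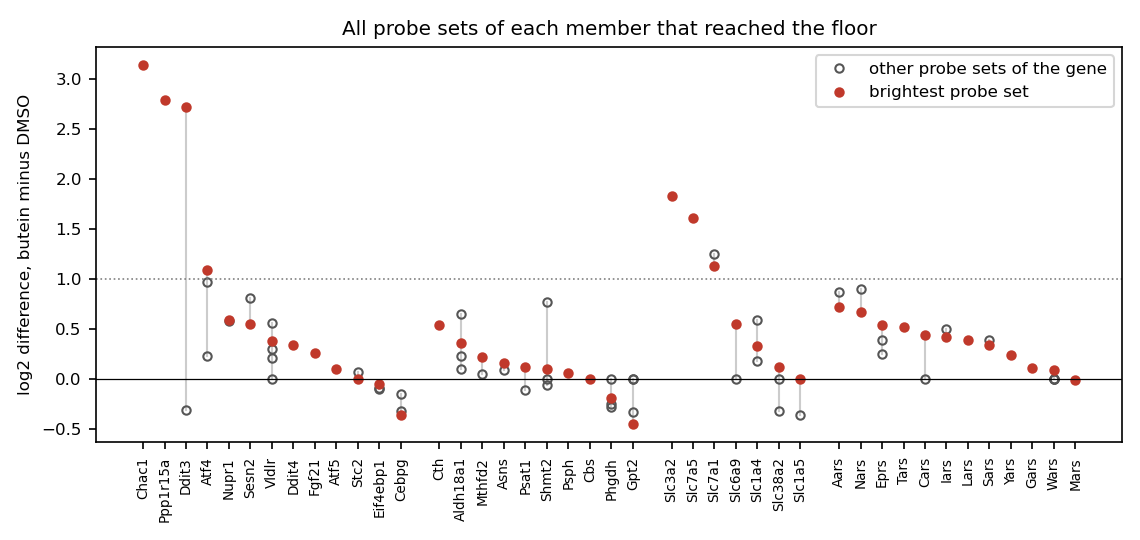
Log2 difference, butein minus DMSO, for every probe set of each gene that reached the floor, with the brightest probe set filled and the others open, in the order regulators, synthesis enzymes, transporters and tRNA synthetases. Over the genes past 2-fold, 3 of 4 other probe sets had the same sign, the exception being Ddit3. Only 1 of these 4, that of Slc7a1, was itself past 2-fold. For 4 of the 7 genes, Chac1, Ppp1r15a, Slc3a2 and Slc7a5, there was 1 probe set and so no second reading.

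The promoters of these genes were searched for the composite element itself. The windows below are from RefSeq on GRCm38.p6 and run from 250 bases before to 50 bases after the annotated start, 5′ to 3′ on the strand of the gene. They are shown because Chac1 led the regulators, Aars and Tars were among the higher synthetases, Asns holds the element and stayed near its solvent level, and Ppp1r15a holds a different one. Capitals mark TGATGNAA on either strand, the core of the C/EBP-ATF response element, or, in Ppp1r15a, TGACGTCA, the cAMP response element, which reads the same on both strands.
Chac1 (chr2:119350992-119351291, plus strand): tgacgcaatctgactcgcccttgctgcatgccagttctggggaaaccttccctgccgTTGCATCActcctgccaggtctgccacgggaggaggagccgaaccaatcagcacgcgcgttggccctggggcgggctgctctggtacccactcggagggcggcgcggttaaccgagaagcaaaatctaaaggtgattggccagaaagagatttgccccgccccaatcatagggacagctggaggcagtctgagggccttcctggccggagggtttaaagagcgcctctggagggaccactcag
Aars (chr8:111033592-111033891, plus strand): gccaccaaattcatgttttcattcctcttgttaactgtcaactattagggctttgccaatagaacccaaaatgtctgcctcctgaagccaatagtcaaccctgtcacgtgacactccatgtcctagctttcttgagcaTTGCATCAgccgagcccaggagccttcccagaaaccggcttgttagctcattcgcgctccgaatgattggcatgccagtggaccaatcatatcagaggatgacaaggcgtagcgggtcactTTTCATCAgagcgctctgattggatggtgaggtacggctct
Tars (chr15:11399609-11399908, minus strand): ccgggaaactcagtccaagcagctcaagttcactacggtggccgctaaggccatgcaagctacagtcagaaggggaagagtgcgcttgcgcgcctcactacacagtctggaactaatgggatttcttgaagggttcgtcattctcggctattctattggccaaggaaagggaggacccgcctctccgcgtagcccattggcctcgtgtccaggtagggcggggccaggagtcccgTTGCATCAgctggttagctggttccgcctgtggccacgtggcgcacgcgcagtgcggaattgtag
Asns (chr6:7693160-7693459, minus strand): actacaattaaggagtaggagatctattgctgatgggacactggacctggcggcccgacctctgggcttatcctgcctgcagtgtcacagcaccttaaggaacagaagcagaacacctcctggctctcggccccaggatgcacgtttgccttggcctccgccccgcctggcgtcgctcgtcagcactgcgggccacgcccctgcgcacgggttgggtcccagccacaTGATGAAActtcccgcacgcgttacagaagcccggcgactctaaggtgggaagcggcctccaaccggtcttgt
Ppp1r15a (chr7:45526219-45526518, minus strand): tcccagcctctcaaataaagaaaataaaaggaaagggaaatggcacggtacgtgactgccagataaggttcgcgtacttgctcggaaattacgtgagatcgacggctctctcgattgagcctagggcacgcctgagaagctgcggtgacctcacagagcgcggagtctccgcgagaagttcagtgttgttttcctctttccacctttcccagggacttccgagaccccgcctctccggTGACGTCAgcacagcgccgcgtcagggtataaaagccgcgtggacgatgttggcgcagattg

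In Chac1 the element begins 193 bases before the start, in Tars 15 and in Asns 23. Aars holds it at 112 bases before the start and again just after it. The element was found in 11 of 40 windows of these genes (27.5%), which belong to 11 of 34 genes with a window, against 3.97% of all 32851 windows. By role that was 5 of 8 synthetases (Aars, Gars, Iars, Tars and Yars), 4 of 12 regulators (Chac1, Nupr1, Fgf21 and Vldlr), 1 of 5 transporters (Slc1a4) and 1 of 9 synthesis enzymes (Asns). The list was built around known ATF4 targets, so that share describes it and is not an independent finding.

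The 11 genes with it had a median log2 difference of 0.38 with butein, from 0.12 in Gars to 3.14 in Chac1, and the 23 without it had a median of 0.22. Cebpg, Gpt2, Phgdh and Mars, the genes with a window that were lower with butein, did not hold it, and no test was made of the element against the differences. Of the 6 genes past 2-fold with a window, Chac1 held the element, Ppp1r15a held TGACGTCA 12 bases before its start (present in 1.79% of all windows), and Atf4, Ddit3, Slc3a2 and Slc7a1 held neither in these letters and this stretch. In no window did the 2 motifs overlap. A match of letters is a description and shows no binding.

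Sulfuretin moved few of these genes. Compared with DMSO, 1 of 42, Slc3a2, was at least 2-fold higher (2.14-fold, rank 19 from the top) and 0 were lower, where 0.193% of all counted genes were 2-fold higher and 0.0482% lower. In all, 18 were higher, 18 lower and 6 equal, with a median of 0, against 34.8% higher and 32.6% lower among all counted genes. Among the genes that were higher, the next were Ppp1r15a at 1.33-fold, Slc7a1 at 1.29-fold, Slc7a5 at 1.24-fold and Atf4 at 1.19-fold, and Chac1 was at 1.10-fold. Slc3a2 was under 2-fold when DMSO1, or both solvent arrays averaged, served as control after joint quantile normalization, the lowest log2 value being 0.55.

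By role, sulfuretin left the regulators at a median log2 difference of 0.04, the transporters at 0.04 and the synthetases at 0. The synthesis enzymes had 8 of 10 genes lower and 1 higher, with a median of -0.14. Cth was the lowest at -0.36, reading 17.9 with sulfuretin, against 23.1 in DMSO, and Aldh18a1 was the 1 that was higher, at 0.13. Over all 25 probe sets of these enzymes at or above the floor, 16 were lower, 3 higher and 6 equal.

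Resveratrol gave small differences. Compared with DMSO1, 1 of 42 genes, Chac1, was at least 2-fold higher (2.01-fold, rank 10 from the top) and 0 were lower, where 0.0804% of all counted genes were 2-fold higher and 0.0643% lower. In all, 20 were higher, 13 lower and 9 equal, with a median of 0, against 32.9% higher and 34.0% lower among all counted genes. Chac1 at 2.01-fold sat on the criterion and went under it when DMSO, or DMSO and DMSO1 averaged, served as control after joint quantile normalization, the lowest log2 value being 0.75.

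Below the criterion, Ppp1r15a was 1.45-fold, Slc7a5 1.43-fold, Ddit3 1.35-fold, Atf4 1.28-fold, Slc3a2 1.26-fold and Slc7a1 1.21-fold higher with resveratrol than in DMSO1. The 95th percentile of all counted genes in that comparison was a log2 difference of 0.19, with 622 of 12439 genes above it. Above it lay 8 of the 42 genes, namely all 7 genes that were past 2-fold with butein and Slc6a9, which exceeded it by a hair. This percentile was chosen as a yardstick after the values were seen. How many of all counted genes past 2-fold with butein lay above it was not taken, so the overlap has no background beside it. With sulfuretin 3 of the 42 genes, Ppp1r15a, Slc3a2 and Slc7a1, lay above the 95th percentile of that comparison (log2 0.33). The resveratrol and butein comparisons share no array, but the solvent arrays differ between them. After joint quantile normalization DMSO1 minus DMSO was 0.52 for Slc3a2, 0.36 for Ppp1r15a, 0.35 for Slc7a5, 0.20 for Atf4, 0.12 for Ddit3, -0.39 for Chac1 and -0.42 for Slc7a1, sizes like those with resveratrol, so a difference between cultures and one that goes with the compound cannot be told apart. Over all 42 genes 1 was 2-fold higher and 1 lower in DMSO1 than in DMSO (Slc1a5 and Slc1a4), where 2.32% of all counted genes were higher and 3.50% lower.

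By role, transporters had 6 of 7 genes higher with resveratrol and a median of 0.20, while regulators were at 0.01 and synthesis enzymes and synthetases at 0. The transporter median was 0.70 with DMSO as control after joint quantile normalization. All 12 synthetases lay between -0.08 and 0.06, and all 10 synthesis enzymes between -0.08 and 0.07. The lowest regulator was Eif4ebp1 at -0.30, with Ddit4 at -0.26 and Vldlr at -0.20.

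**Figure D4:**
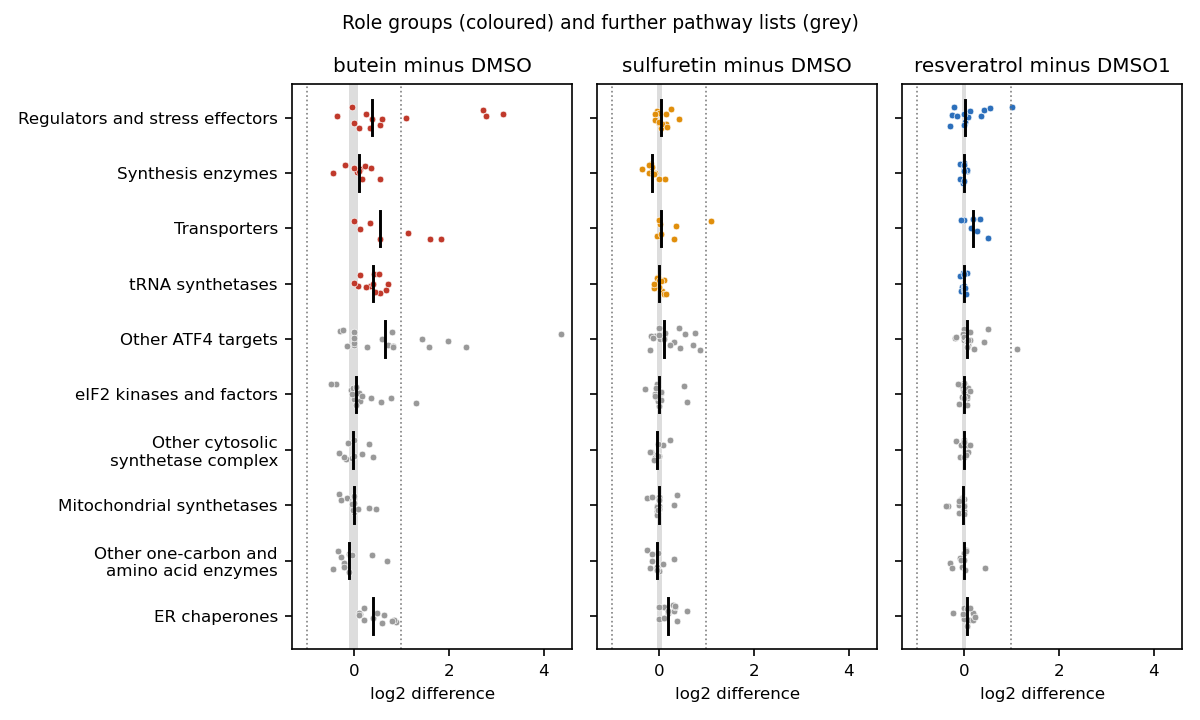
Log2 differences by list in each comparison, with 1 point per gene, a black bar at the median of the list and a grey band from the lower to the upper quartile of all counted genes (roles of the 42 genes coloured, further pathway lists grey, vertical scatter added for legibility). With butein the 4 roles have medians of 0.38, 0.11, 0.55 and 0.41 from top to bottom. The list of other cytosolic synthetases and scaffold proteins sits at -0.03 and that of mitochondrial synthetases at -0.01.

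Sensors and factors upstream of ATF4 were mostly level. Of 16 counted genes for eIF2 kinases, eIF2 and eIF2B subunits and their regulators, 1 was past 2-fold with butein, and the median was 0.04. That gene was Impact, an inhibitor of the amino acid sensing kinase, which read 661 with butein, 387 with sulfuretin and 269 in DMSO, and 344 with resveratrol, against 316 in DMSO1. Eif2ak3, the kinase of the endoplasmic reticulum, was 1.72-fold higher with butein and 1.51-fold with sulfuretin, and read 68.0 with both resveratrol and DMSO1. Eif2ak4, the amino acid sensing kinase, read 30.0 with butein, sulfuretin and DMSO alike, and 38.4 with resveratrol, against 41.1 in DMSO1.

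Other reported targets of ATF4 were mixed under butein, from Slc6a6 at a log2 difference of -0.29 to Atf3 at 4.36. Of 18 counted, 11 were higher, 3 lower and 4 equal, with a median of 0.65. Past 2-fold, 5 were higher and 0 lower, where 2.03% of all counted genes were 2-fold higher and 0.297% lower. The 5 were Atf3 (20.6-fold), a repressor that shares many sites with ATF4, Gadd45a (5.10-fold), Trib3 (3.96-fold), a pseudokinase that restrains ATF4, Cebpb (2.99-fold) and Slc7a11 (2.68-fold). Slc7a11, the cystine light chain that also pairs with Slc3a2, read 16.7 with butein, 7.83 with sulfuretin and 6.24 in DMSO, the last 2 under the floor. It was counted only through the butein array, so its size is uncertain and its place among the 5 follows from that value. With sulfuretin none of the 18 was past 2-fold, with Atf3 at 1.81-fold and Trib3 at 1.70-fold, and with resveratrol Atf3 was (2.17-fold), while Trib3 was at 1.34-fold and Slc7a11 read 5.96 with both resveratrol and DMSO1, under the floor. Several of these genes are also induced by other stress pathways.

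Set directly against sulfuretin, the other flavonoid of the same set, butein was at least 2-fold higher for 4 of 42 genes and lower for 0, where 1.04% of all counted genes were 2-fold higher and 0.0965% lower. In all, 36 were higher, 4 lower and 2 equal, against 30.1% higher and 37.0% lower among all counted genes, and 10 were at least 1.5-fold higher, as were 2.83% of all counted genes. The 4 were Chac1 (7.99-fold), Ddit3 (6.64-fold), Ppp1r15a (5.19-fold) and Slc7a5 (2.46-fold). All 12 synthetases were higher with butein than with sulfuretin, by log2 differences of 0.09 in Wars to 0.75 in Aars, with a median of 0.40. Slc3a2 differed less, by 1.66-fold, and Cebpg was the lowest at -0.49. The treatment time was the same, but the labels give no doses, so these 2 arrays are described here and the difference is not one of potency.

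A test could be had only by treating DMSO and DMSO1 as replicates of 1 solvent group, which reads across the sets, without rescaling on the deposited values. It leaves 1 residual degree of freedom and assumes that the treated arrays vary like the solvent arrays. On the deposited values every gene was given the same SE against the solvent group, 0.669, a spread pooled over all genes. The p values of that fit therefore do not rest on the spread of the gene itself. On the deposited values limma then called 1 of the 42 genes with butein, Chac1 (log2 difference 2.99 to the mean of both solvent arrays, SE 0.669, Benjamini-Hochberg adjusted p 0.00733), where 18 genes were called higher and 2 lower among all 12439. The next were Ddit3 (limma adjusted p 0.0959) and Ppp1r15a (limma adjusted p 0.206). After joint quantile normalization limma called 0 of 41, the lowest adjusted p being 0.314 for Chac1 and Ddit3, with 8 of the genes higher and 0 lower at an unadjusted p under 0.05, where 295 of all 12119 genes were higher and 64 lower. For sulfuretin and resveratrol limma called none of these genes in either setting. For butein minus sulfuretin limma called 0 as well, with 3 higher at an unadjusted p under 0.05 on the deposited values (59 of all 12439 genes) and 4 after normalization (103 of all 12119), the lowest adjusted p being 0.263 for Chac1.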

How the data were processed

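Total RNA of C3H10T1/2 adipocytes was read on Affymetrix mouse arrays, 1 for each of 5 groups. RMA is named in the submitters' processing notes, without version or settings. What the authors deposited are linear intensities, to judge by their values; these were log2-transformed with no pseudocount. On each array 45037 probe sets were read. Only those naming 1 gene were kept, symbols were updated by gene ID (RefSeq, GRCm38.p6), and the brightest probe set by mean log2 stood for its gene. A gene was counted when any array reached the median probe set (8.39), and called at a log2 difference of 1 (2-fold). Equal means within 1e-06 on log2, which held for 29.9% (butein), 32.5% (sulfuretin) and 33.1% (resveratrol) of counted genes against their solvent array.

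Genes, roles and further lists were chosen with earlier results of these data known. By rule, Atf4 and genes past 2-fold in a comparison are given on every array, others by range, with the extremes of each role by value. Of the further lists Eif2ak3, Eif2ak4, Trib3, Atf3 and Slc7a11 are named, and up to 4 others per list past 2-fold; all other genes and values were picked after they were seen. Settings varied were the fold (1.5 or 3), the floor (none, or percentile 75), averaging probe sets, dropping cross-hybridising ones, joint quantile normalization, centring, the solvent array used as control, and limma (adjusted p 0.05). Taking the brightest probe set within the own set of arrays was chosen after seeing the data. The steps were tested on simulated data. Software was R 4.3.3 with limma 3.58.1, and Python 3.11.15 with pandas 2.3.3, numpy 2.4.6 and matplotlib 3.10.9.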

Additional observations from a re-analysis of the deposited data

How the results depend on the processing

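With 1 array per group no replicate could be left out, and a shift in a median was set against the median SD of these genes between the solvent arrays (0.24, on log2). No paired analysis was possible because each group has 1 array. The 7 genes past 2-fold with butein became 10 at 1.5-fold (5.01% of all counted genes), 5 at 3-fold, 5 with the mean of probe sets and 10 with the other solvent array (Vldlr, Slc1a4, Aars and Nars added, Atf4 lost), and limma called 1, or 0 after joint quantile normalization. The 1 gene past 2-fold with sulfuretin and the 1 with resveratrol became 0 at 3-fold, with the mean of both solvent arrays and under both limma fits. The 4 past 2-fold between butein and sulfuretin became 10 at 1.5-fold (2.83% of all counted genes) and 0 under both limma fits. With the other solvent array after joint quantile normalization, 1 gene was 2-fold lower with each compound where 0 had been, and so it was for resveratrol with the mean of both (1). In those settings the butein medians were higher for regulators, there without Fgf21 (0.87 with the other solvent array, 0.66 with the mean of both), and for transporters (1.15 and 1.26). The resveratrol median of transporters was 0.70 with the other solvent array. The synthetase median with butein stayed between 0.33 and 0.42 over the alternatives run. The synthesis median with butein was -0.11 and -0.05 in those settings, against 0.11 as reported. For Slc1a4 the solvent arrays themselves differed by -2.06 (DMSO1 minus DMSO), and for Slc1a5 by 1.36, so these genes cannot be compared across sets. Vldlr, Aars and Nars, also added with the other solvent array, were lower in DMSO1 as well (-0.70, -0.49 and -0.70).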
